A study of Mus musculus with 12 samples.

Results

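The regions described here are stretches of the mouse genome in which the DNA methylation of a bimaternal (BM) embryo and a bipaternal (BP) embryo differed. The autosomes were divided into tiles of 1 kb, and a tile was measured where at least 5 cytosines had a value in the BM, BP and wild-type (WT) embryos at E15.5 and reached 20% methylation in at least 1 of 12 libraries. A tile was a member where the mean methylation of the BM and BP embryos differed by 25 percentage points or more. Of 49745 measured tiles 207 were members (0.416% of all tiles), 99 of them higher in the BM embryo (0.199%) and 108 higher in the BP embryo (0.217%). Members were thus selected on the measured difference between these embryos, which is given below as a description only.

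The assay was reduced representation bisulfite sequencing (RRBS): DNA is cut with MspI, which enriches for CpG-rich fragments, and methylated cytosines are those that bisulfite leaves unconverted. The BM embryo came from a parthenogenetic haploid embryonic stem cell (phESC, maternal genome only) injected into an oocyte at metaphase II. The BP embryo came from an androgenetic haploid embryonic stem cell (ahESC, paternal genome only) placed with a sperm into an oocyte without its nucleus. The WT embryo came from an ordinary zygote. These 3 libraries were whole embryos at E15.5, and both uniparental embryos carried knockouts of differentially methylated regions (DMRs). The other libraries were brain of BM mice at E19.5 and in adulthood, also labelled DMR knockout, adult WT brain, and ahESCs, phESCs and diploid embryonic stem cells at early and late passage, all labelled WT. The labels do not say which DMRs were deleted, on which copy, or how many animals or clones entered a library. Every member tile had values in all 3 embryos, and in a tile with a deleted copy they come from the remaining copy.

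With 1 library in each group there is no replicate error, and no difference between libraries could be tested. The deposited percentages carry no read depth, so the precision of a single value is unknown. Spreads below are standard deviations over the cytosines of a tile, which share reads and are not replicates. A whole embryo or a brain mixes cell types, and fewer methylated cells cannot be told apart from fewer methylated copies per cell. Methylation percentages hold no expression values, so the labelled tissues were not checked against marker genes. Between 3773871 (BP embryo) and 5903648 (adult WT brain) listed cytosines were measured per library. Late ahESCs, late phESCs and both adult brains stood apart from the other libraries: they alone had values on unplaced sequence of chromosome Y, at 2209 to 7697 positions. Late phESCs had a value in 63.8% of the member tiles, the lowest of the 12 libraries, and only 2.47% of their CpG cytosines in placed sequence lay in the MspI site CCGG, against 15.3 to 26.5% in the other 11. Results on the adult brains or on late cells rest on those libraries, and each is given beside a library that does not stand apart.

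Genomic imprinting keeps some genes active on only the maternal or only the paternal copy. At most imprinted domains the oocyte methylates a control region that sperm leave unmethylated, and the mark is carried through development on the maternal copy; a few domains, among them H19-Igf2, Dlk1-Meg3 and Rasgrf1, are marked in sperm instead. An ordinary embryo therefore has a methylated and an unmethylated copy at such a region. The zinc finger protein ZFP57 is known to keep these marks and to bind the methylated motif TGCCGC.

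Sequences are shown for 7 of the promoters in member tiles whose CpGs were themselves measured, so that the letters can be read beside the methylation values. RefSeq (GRCm38.p6) lists the 250 bases upstream of a gene start, and 35 genes had such a stretch touching a member tile, 9 of them in imprinted domains of a list of 26. Capitals mark each CpG with a value on either strand in all 3 embryos, and each stretch is written 5′ to 3′ on the strand of its gene. Zfp951 and Stap2 were chosen after their values were seen. All stretches shown differed between the BM and BP embryos, but not every measured stretch in a member tile did. Those of Mtch2, Ran, Cyb5b, Psat1 and Ncapg2, not shown, averaged at most 1.75% in each of the 3 embryos. Of the stretches shown the first 3 are from imprinted domains methylated in the oocyte, the next pair from BM-higher tiles elsewhere and the last pair from BP-higher tiles. Their GRCm38.p6 positions are chr2:152686898-152687147 (plus strand) for Mcts2, chr10:13090582-13090831 (plus strand) for Plagl1, chr11:22971755-22972004 (plus strand) for Zrsr1, chr7:7299558-7299807 (minus strand) for Clcn4, chr11:97500341-97500590 (minus strand) for 4933428G20Rik, chr5:104860028-104860277 (minus strand) for Zfp951 and chr17:56005607-56005856 (minus strand) for Stap2.
Mcts2: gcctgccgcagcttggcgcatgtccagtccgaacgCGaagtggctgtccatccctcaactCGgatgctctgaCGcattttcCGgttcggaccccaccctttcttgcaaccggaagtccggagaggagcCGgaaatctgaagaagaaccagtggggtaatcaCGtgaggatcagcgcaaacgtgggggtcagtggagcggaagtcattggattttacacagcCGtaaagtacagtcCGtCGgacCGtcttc
Plagl1: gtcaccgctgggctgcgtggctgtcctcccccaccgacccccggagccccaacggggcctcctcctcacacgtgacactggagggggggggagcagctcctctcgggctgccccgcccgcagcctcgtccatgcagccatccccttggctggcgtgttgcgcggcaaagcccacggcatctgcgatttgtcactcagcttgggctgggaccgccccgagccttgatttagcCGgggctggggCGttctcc
Zrsr1: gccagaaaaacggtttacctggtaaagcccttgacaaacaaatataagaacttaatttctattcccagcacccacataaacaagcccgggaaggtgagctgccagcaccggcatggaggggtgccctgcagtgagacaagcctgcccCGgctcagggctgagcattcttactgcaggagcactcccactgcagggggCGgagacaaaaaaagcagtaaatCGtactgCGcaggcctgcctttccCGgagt
Clcn4: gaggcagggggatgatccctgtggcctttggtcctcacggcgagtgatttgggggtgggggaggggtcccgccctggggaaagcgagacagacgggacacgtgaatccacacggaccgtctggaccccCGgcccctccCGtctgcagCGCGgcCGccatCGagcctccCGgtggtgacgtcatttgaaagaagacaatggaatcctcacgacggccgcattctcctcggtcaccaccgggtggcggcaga
4933428G20Rik: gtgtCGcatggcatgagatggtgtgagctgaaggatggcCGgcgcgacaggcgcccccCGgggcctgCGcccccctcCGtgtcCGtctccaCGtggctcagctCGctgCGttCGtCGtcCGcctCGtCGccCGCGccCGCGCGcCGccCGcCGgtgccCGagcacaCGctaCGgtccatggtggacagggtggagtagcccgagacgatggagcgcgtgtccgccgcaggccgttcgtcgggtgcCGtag
Zfp951: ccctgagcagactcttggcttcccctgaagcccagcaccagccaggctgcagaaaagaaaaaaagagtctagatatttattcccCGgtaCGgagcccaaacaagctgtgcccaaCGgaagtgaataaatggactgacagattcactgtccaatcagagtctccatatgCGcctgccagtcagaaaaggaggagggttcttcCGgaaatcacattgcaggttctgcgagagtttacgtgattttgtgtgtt
Stap2: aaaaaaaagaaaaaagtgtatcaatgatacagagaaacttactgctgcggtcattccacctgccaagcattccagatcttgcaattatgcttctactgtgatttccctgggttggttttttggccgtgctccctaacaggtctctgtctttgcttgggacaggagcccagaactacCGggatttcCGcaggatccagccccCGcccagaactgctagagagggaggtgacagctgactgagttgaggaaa
Mcts2 is a retrogene inside an intron of H13. The 10 measured CpG cytosines of its stretch averaged 54.0% in the BM embryo, 2.78% in the BP embryo and 81.5% in the WT embryo. The 3 of Plagl1, which encodes a zinc finger transcription factor, averaged 65.2%, 1.52% and 54.5% in the same order. The 8 of Zrsr1, a retrogene related to a splicing factor, averaged 64.5%, 3.54% and 59.1%. In these 3 stretches the highest BP cytosine (10.5%) lay below the lowest BM cytosine (46.0%). Such values chose the tiles, so this order is a description only. Clcn4, a chloride and proton exchanger gene, is not on the list of imprinted domains. The 12 measured cytosines of its stretch averaged 62.1% in the BM embryo, 2.50% in the BP embryo and 35.9% in the WT embryo. The dense CpGs of 4933428G20Rik, measured at 50 cytosines, averaged 53.5%, 21.1% and 56.7%. In the opposite direction, 8 cytosines of Zfp951, a zinc finger gene, averaged 44.3% in the BM embryo, 78.4% in the BP embryo and 42.2% in the WT embryo. The 5 of Stap2, which encodes a signalling adaptor, averaged 13.4%, 49.1% and 18.8%. The letters TGCCGC, searched on both strands, occurred upstream of 3 of the 9 genes in imprinted domains and of 6 of the other 26, against 8.70% of all 31396 autosomal RefSeq stretches of that length. Of these 3, Plagl1 and Hymai have nearly the same stretch and share 1 match. The motif holds a CpG. The stretches of the 9 genes had 8 to 22 CpGs and those of the other 26 had 4 to 49, against a median of 6 over all stretches. Such a match is a description of the letters and not a binding site.

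The members were spread over tiles of different kinds. They formed 179 clusters when tiles of 1 direction less than 50 kb apart were joined, and 20 clusters held at least 2 tiles. The 99 BM-higher tiles had a median difference of 31.0 points and reached 69.9 points. The 108 BP-higher tiles had a median difference of -29.0 points (BM minus BP) and reached -79.1 points. Many members lay near the limit: 104 tiles differed by 25 to under 30 points, and 264 tiles just outside differed by 20 to under 25. The closest tile inside was chr5:129526001-129527000 (mm9) at the start of Ran, with 26.6% in the BM and 1.59% in the BP embryo. The closest outside was chr17:30077001-30078000 (mm9), with 60.1% and 85.0%.

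BM-higher tiles held more cytosines and more gene starts than BP-higher tiles. A median of 10 cytosines entered a BM-higher tile, 7 a BP-higher tile and 8 any measured tile. A placed gene start lay in 27 of 99 BM-higher tiles (27.3%), in 12 of 108 BP-higher tiles (11.1%) and in 11.5% of all measured tiles. Tiles with 20 or more cytosines held 23 BM-higher and 2 BP-higher members, and 0.951% of such tiles were members. Tiles with 5 to 9 cytosines, whose means are less precise, held 44 and 80, and 0.371% were members. In 84 of 99 BM-higher and 90 of 108 BP-higher tiles every cytosine had the direction of the tile. The same cytosines chose the members, and no such share over all measured tiles was computed. The 20% condition leaves out cytosines that are low everywhere, including GC positions outside CpG. A tile mean thus overstates the level over all listed positions. Of listed positions of known context 50.2% were CpG, and of those entering member tiles 99.7%. Over all listed positions with the 3 embryo values, all 207 members kept their direction and 28 still differed by 25 points. The GC positions outside CpG lower these differences, and how much of the fall comes from CpGs was not computed.

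**Figure D1:**
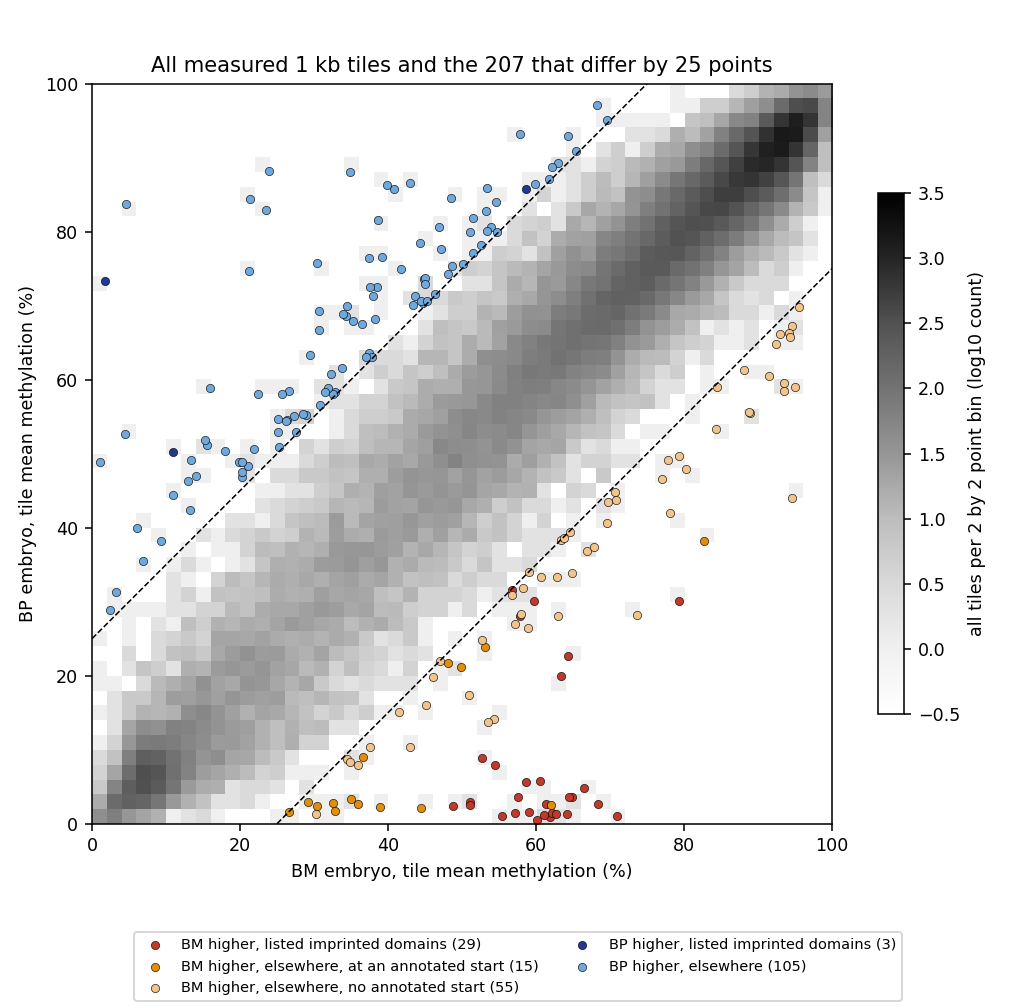
Mean methylation of 1 kb tiles in the BM embryo (horizontal axis, %) and the BP embryo (vertical axis, %); grey squares count all 49745 measured tiles on a log10 scale, points are the 207 members and dashed lines mark the 25 point limit. The 29 BM-higher tiles of listed imprinted domains lie mostly along the bottom of the plot, and 104 members lie within 5 points of a dashed line.

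Imprinted domains held 29 of the 99 BM-higher tiles (29.3%) and 3 of the 108 BP-higher tiles (2.78%), while 0.485% of all measured tiles lay in these domains. All 26 listed domains had a measured tile within 100 kb of their genes, and 19 had a member. Of 22 domains marked in the oocyte 16 had a BM-higher tile. Across the 29 tiles the median level was 60.5% in the BM embryo, 2.95% in the BP embryo and 52.8% in the WT embryo. The BP embryo was under 25% in 25 of the 29, and in 27 every BM cytosine exceeded every BP cytosine of the tile. Both counts use the values that chose the members. The WT level entered the choice of members only by being present and through the level that a cytosine had to reach in some library. It lay between 35.3 and 70.3% in the 29 tiles, nearer the BM than the BP level in each of them.

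Several of these domains control fetal growth. Grb10 encodes an adaptor that restrains insulin and growth factor signalling. Its tile at chr11:11926001-11927000 (mm9, over a gene start) had 90 cytosines, with a mean of 51.0 ± 13.5% in the BM embryo, 2.58 ± 4.76% in the BP embryo and 52.8 ± 9.69% in the WT embryo (SD over cytosines). Airn is a noncoding RNA whose transcription silences Igf2r, the receptor that clears IGF2. Its tile chr17:12935001-12936000 (mm9), between placed exons of Igf2r, had the largest BM-higher difference of all members, with 70.9 ± 2.15%, 1.02 ± 2.70% and 66.6 ± 0.427% in the BM, BP and WT embryos. The neighbouring tile chr17:12934001-12935000 had 61.4%, 2.62% and 43.5%. Kcnq1ot1, a noncoding RNA that silences a group of neighbours including the growth inhibitor Cdkn1c, had 64.1 ± 7.02%, 1.28 ± 2.37% and 35.3 ± 23.9% at chr7:150481001-150482000. The BM embryo stood 28.8 points above the WT embryo there, and the WT cytosines ranged from 0 to 57.7%. Plagl1 is a transcription factor of a network of growth genes. Its tile chr10:12810001-12811000 had 66 cytosines at 55.4 ± 6.74%, 1.01 ± 1.86% and 53.4 ± 3.68%. In each of these 5 tiles the BP embryo was near 0 and the other embryos lay in the middle range.

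A second group is best known from brain and placenta. Gnas encodes the stimulatory G protein subunit and, from other starts, several further products. It had 7 BM-higher tiles, the most of any domain. Of the 5 in the upstream group the third, chr2:174124001-174125000 (mm9), had 66.4% in the BM, 4.87% in the BP and 65.0% in the WT embryo. In the pair of downstream tiles, around the start placed in chr2:174153001-174154000, the BP embryo kept 28.1% and 19.9%, against 57.9% and 63.3% in the BM and 52.3% and 46.8% in the WT embryo. Nnat encodes a small membrane protein of developing neurons and lies within Blcap. Its 3 adjacent tiles had 60.1%, 58.6% and 60.5% in the BM embryo, 0.476%, 5.68% and 5.81% in the BP embryo, and 61.5%, 58.6% and 42.6% in the WT embryo. Peg3, a zinc finger gene, shares its start region with Usp29 and had 62.2%, 1.44% and 59.2% at chr7:6683001-6684000 over 5 cytosines. Nap1l5, a gene of the nucleosome assembly protein family inside Herc3, had 68.3 ± 5.13%, 2.59 ± 3.87% and 69.1 ± 3.68% at chr6:58856001-58857000 over 29 cytosines. Peg10, a retrotransposon-derived gene needed in placenta, had 61.8 ± 2.01%, 0.847 ± 2.25% and 41.7 ± 2.75% at chr6:4697001-4698000. Mest, of the hydrolase family, had its tiles 7014 and 3014 bp from its own nearest placed exon, the first of them over an exon of Gm44296, with 64.9% and 51.1% in the BM, 3.64% and 2.95% in the BP, and 53.8% and 47.2% in the WT embryo.

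Of the other oocyte-marked domains 6 had BM-higher tiles. Zrsr1 had 3 measured tiles and all were members, with 64.5%, 61.1% and 79.3% in the BM embryo, 3.54%, 1.22% and 30.1% in the BP embryo, and 59.1%, 51.8% and 69.1% in the WT embryo. The Mcts2 tile had 59.0%, 1.51% and 70.3% in the BM, BP and WT embryos, and was the tile of this group in which the WT embryo exceeded the BM embryo by the most. Inpp5f, a phosphoinositide phosphatase gene, had 57.5%, 3.61% and 59.5% in a tile assigned to it within 100 kb but not within 50 kb. Impact, a regulator of translation under amino acid shortage, had 57.2%, 1.42% and 35.7%. Slc38a4, an amino acid transporter gene, had 56.8%, 31.6% and 49.3% in a tile over its start, and 62.7%, 1.26% and 36.8% in a tile 4483 bp from its nearest placed exon. Peg13, a noncoding RNA inside Trappc9, had 59.7%, 30.1% and 62.4%. Partial methylation of the BP embryo, at 19.9 to 31.6%, was thus found in 6 of the 29 tiles, in the Gnas, Zrsr1, Peg13 and Slc38a4 domains.

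The opposite order was found at domains marked in sperm. The H19 and Igf2 genes, a noncoding RNA and a fetal growth factor, share a control region between them. The tile chr7:149764001-149765000 (mm9), 1558 bp from the nearest placed exon of H19, had 1.74 ± 2.40% in the BM embryo, 73.4 ± 4.03% in the BP embryo and 44.7 ± 2.58% in the WT embryo over 8 cytosines within 78 bp. Its BM cytosines ran from 0 to 6.04% and its BP cytosines from 69.4 to 78.9%. It had 2.60% in BM brain at E19.5, 23.1% in adult BM brain and 40.2% in adult WT brain. Rasgrf1, an activator of Ras, had 10.9 ± 3.12%, 50.3 ± 6.04% and 43.1 ± 10.8% at chr9:89780001-89781000. That tile had 30.3% in BM brain at E19.5, 10.2% in adult BM brain and 23.5% in adult WT brain. In both tiles the WT embryo lay between the uniparental embryos. The Zdbf2 domain, which is marked in the oocyte and is known to gain methylation on the paternal copy later, had a BP-higher tile 6839 bp from the nearest placed exon, with 58.7%, 85.7% and 49.7%.

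No member was found at 7 listed domains. The largest BM-minus-BP difference at Snrpn was 4.002 points over 2 tiles, at Ndn-Magel2 19.2 points over 9, and at Zfp777 20.9 points over 5. Cdh15 ran from -19.5 to 2.62 points over 18 tiles, and Fkbp6 from -4.17 to 6.68 over 11. Dlk1-Meg3, marked in sperm, ran from -23.0 to 10.6 points over 19 tiles, and Cdkn1c from -6.51 to 11.5 over 16. These tiles need not cover the control region of the domain, so a missing member says nothing about that region.

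**Figure D2:**
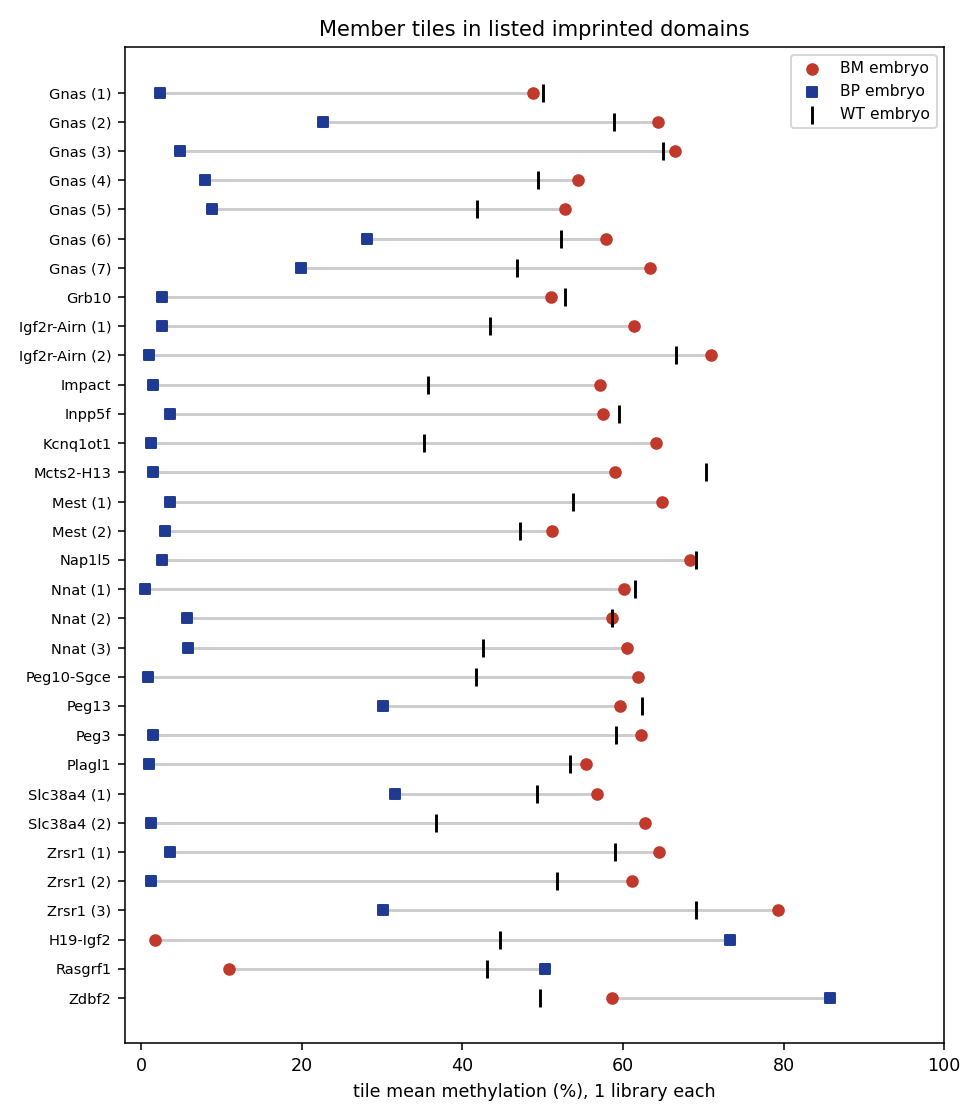
Tile mean methylation (%) of the 32 members in listed imprinted domains, in the BM embryo (red circles), the BP embryo (blue squares) and the WT embryo (black bars), with 1 library each; numbers in brackets order the tiles of a domain along the chromosome. In the upper 29 tiles the BP embryo is the lowest, mostly near 0, and in the H19-Igf2, Rasgrf1 and Zdbf2 tiles it is the highest.

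The other libraries, which entered the choice of members only through the 20% condition, also differed at the 29 oocyte-marked tiles. Their median was 47.6% in early diploid stem cells, 3.01% in early ahESCs and 2.48% in early phESCs. Early ahESCs were lower than early diploid cells by 25 points in 24 of the 29 tiles, against 0.362% of all tiles, and early phESCs in 24, against 55.3% of all tiles. The second count cannot be read apart from the generally lower methylation of early phESCs, whose median over all tiles was 40.01% against 73.0% in diploid cells. The 5 tiles low in early diploid cells as well were the Mcts2 tile (0.912%), both Slc38a4 tiles (2.71% and 1.26%) and the downstream Gnas pair (10.3% and 9.71%). In all 5 the WT embryo had 36.8 to 70.3%. At late passage the medians were 1.94% in diploid cells, 4.73% in ahESCs and 3.997% in phESCs, while the medians over all tiles were 25.1%, 32.0% and 27.1%.

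In brain the median of the 29 tiles was 59.3% in BM mice at E19.5, with a range of 51.4 to 74.9%, and 28 of them were at least 25 points above the BP embryo, against 4.56% of all tiles. That comparison differs in tissue and stage as well as in parental origin. It also uses the BP level, which chose the tiles, so the count is a description only. In 26 of the tiles measured in adult BM brain the median was 63.9%, and adult WT brain had 55.7% in 28. Adult BM brain exceeded adult WT brain by 25 points in 2 of 26 tiles, against 0.0595% of all tiles. They were the tile of Igf2r-Airn with 80.9% and 49.4%, and the Peg3 tile with 71.7% and 43.9%. Adult BM brain was lower by 25 points in none of the 26, against 0.483% of all tiles. At E19.5 the Igf2r-Airn and Peg3 tiles had 66.7% and 61.9% in BM brain.

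**Figure D3:**
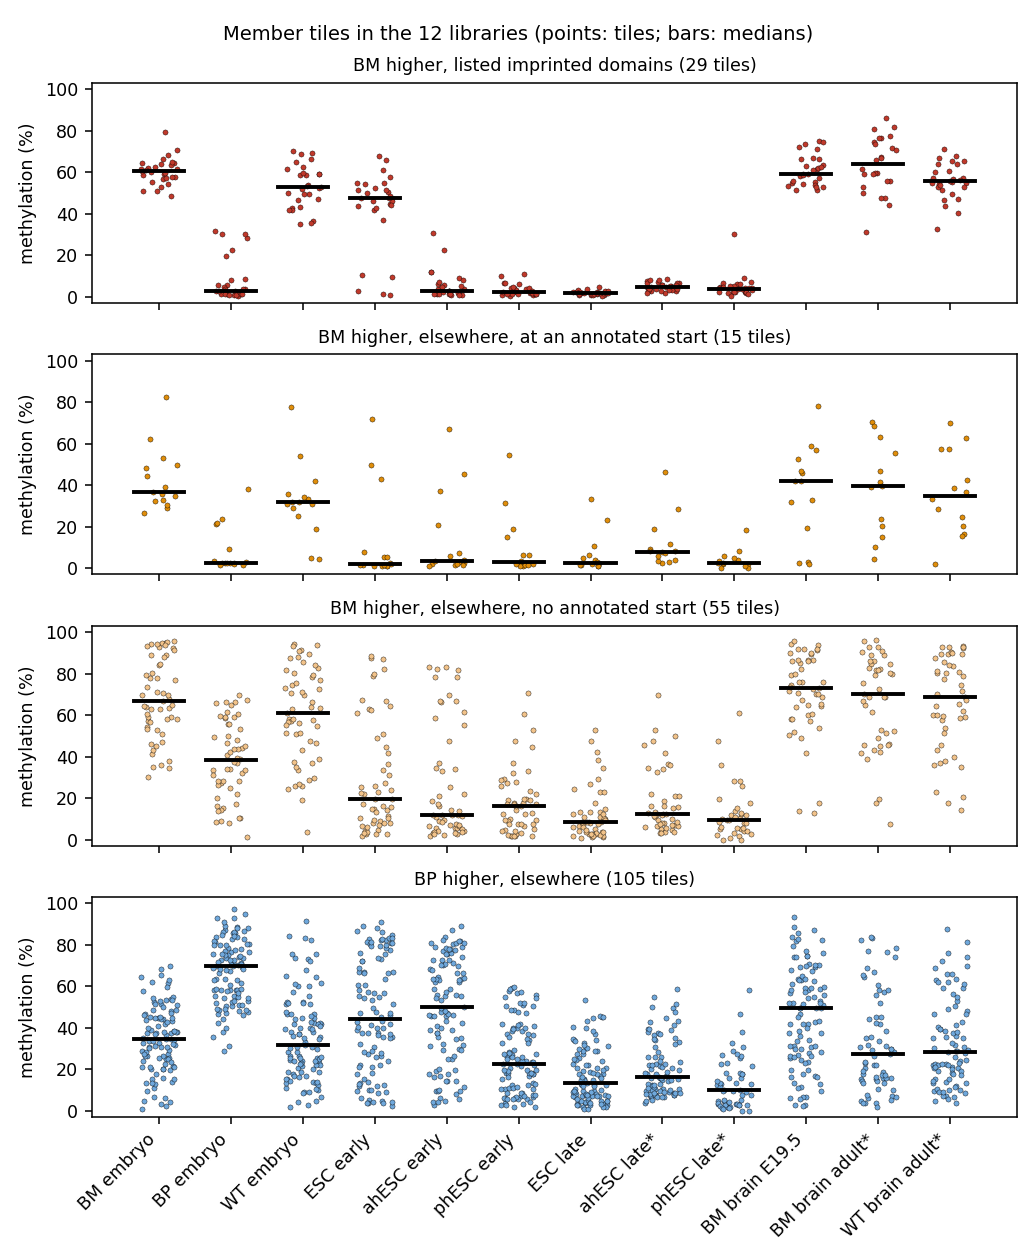
Tile mean methylation (%) of member tiles in each of the 12 libraries, in panels by class of member; points are tiles, bars are medians, and asterisks mark the 4 libraries that stand apart. In the top panel the BP embryo, both early haploid lines and all late lines lie near 0, while the other embryos, early diploid cells (ESC) and brains have medians of 47.6 to 63.9%.

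Outside the listed domains 70 tiles were higher in the BM embryo. Their median levels were 62.5% in the BM, 32.6% in the BP and 55.7% in the WT embryo, and the WT level was nearer to the BM level in 54 and to the BP level in 16. Early stem cells had medians of 11.4% in ahESCs, 12.7% in phESCs and 14.9% in diploid cells. The brain medians were 68.5% in BM brain at E19.5, 65.8% in adult BM brain and 60.2% in adult WT brain, over 63, 56 and 61 tiles. The early diploid median of 14.9% stands against 47.6% in the 29 imprinted tiles.

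In 15 of the 70 tiles an annotated gene start was placed. Their medians were 36.6% in the BM, 2.72% in the BP and 31.7% in the WT embryo, and 2.04 to 3.68% in the 3 early stem cell lines. Of the genes named here Ndufc2, Cyb5b, Mff, Psat1 and Ran were chosen after their values were seen. Mtch2, a carrier protein of the outer mitochondrial membrane, had 39.0% over 18 cytosines in the BM embryo, 2.26% in the BP embryo and 31.1% in the WT embryo, with 42.1% in BM brain at E19.5 and 4.43% and 2.14% in adult BM and WT brain. The tile of Mrpl36 and Ndufs6, a mitochondrial ribosome protein and a subunit of respiratory complex I, had 44.4%, 2.12% and 32.0% in the embryos, 39.6% and 42.6% in the adult brains and 2.14% in BM brain at E19.5. Ndufc2, another subunit of complex I, had 36.0%, 2.59% and 25.4%. Cyb5b, an outer membrane cytochrome, had 32.6%, 2.72% and 34.4%, and Mff, a factor of mitochondrial fission, 29.2%, 2.88% and 29.2%. Psat1, an enzyme of serine synthesis, had 30.5%, 2.43% and 31.7%. Ran, a nuclear transport GTPase, had 26.6% in the BM embryo but 1.59% and 4.79% in the BP and WT embryos. These levels concern only the cytosines that reached 20% in some library. In the Mtch2 tile they were 18 of 70 listed positions with embryo values, and over all 70 the BM, BP and WT means were 10.8%, 1.06% and 8.60%. Over all such positions the BM-minus-BP difference was 10.4 points at Ndufc2 and 9.45 at Mrpl36 and Ndufs6. It was only 2.78 points at Ran (17 of 152 positions kept), 2.61 at Mff (6 of 61), 3.62 at Psat1 (10 of 85) and 3.73 at Cyb5b (16 of 147). Listed positions include cytosines outside CpG, which lower these means and differences. The 6 measured CpG cytosines within 250 bases upstream of the RefSeq start of Mtch2 averaged 0%, 1.67% and 0%, and those of Ran (37 cytosines) 0.692%, 0.980% and 0.883%. The 24 of Cyb5b averaged 1.12%, 0.266% and 1.69%, and the 24 of 1 RefSeq start of Psat1 0.752%, 0.617% and 0.767%. In the Mtch2, Ran, Cyb5b and Psat1 tiles the cytosines methylated in the BM embryo thus lay outside the measured part of that stretch.

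The methylated cytosines of Clcn4 lay in the upstream stretch shown above. Over all 24 listed positions of its tile with embryo values, whether or not in a CpG, the BM and BP embryos still differed by 30.3 points. Its tile had 62.1 ± 7.27% in the BM embryo, 2.50 ± 4.23% in the BP embryo and 35.9 ± 4.51% in the WT embryo (SD over 12 cytosines within 41 bp). It had 54.5% in early phESCs, 20.8% in early ahESCs and 5.40% in early diploid cells, and 1.77%, 18.7% and 33.2% in the late cells of the same kinds. In brain it had 78.0% in BM at E19.5, 23.5% in adult BM and 36.5% in adult WT. Its level thus also differed widely between early and late phESCs and between the brains. Of the other starts, 4833420G17Rik had 32.8% in the BM embryo and 1.75% and 4.59% in the BP and WT embryos. Tmem267 had 82.6%, 38.3% and 77.6% over 6 cytosines spread over 999 bp.

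**Figure D4:**
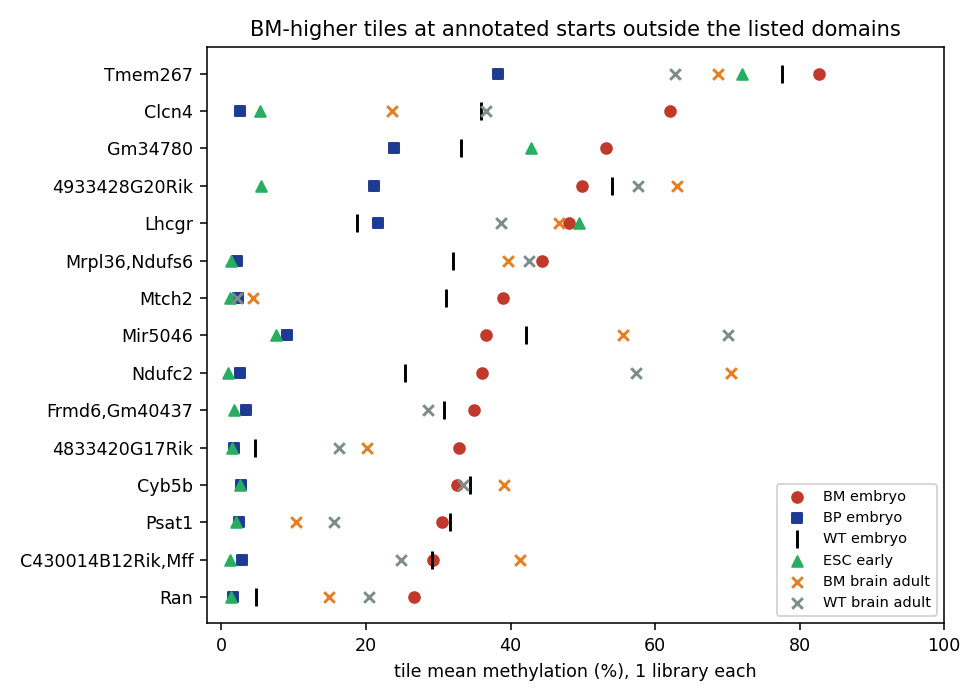
Tile mean methylation (%) of the 15 BM-higher tiles with a placed gene start outside the listed domains, in the 3 embryos, early diploid cells (ESC) and the adult brains, with 1 library each. In 11 of the 15 tiles the BP embryo is under 10%, and early diploid cells are at most 7.61% there.

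Of 14 clusters of 2 or more tiles outside the listed domains, 7 were higher in the BM embryo. Zfp467, a zinc finger gene, had 2 tiles over its exons with 80 and 15 cytosines. They had 63.4% and 66.8% in the BM embryo, 38.3% and 36.8% in the BP embryo, and 64.1% and 69.6% in the WT embryo. All 6 stem cell libraries were between 1.35 and 5.15% there, and the 3 brains between 72.5 and 86.0%. The tiles of 4933428G20Rik, which also covers Arhgap23, and of Arhgap23 alone had 49.8% and 47.0% in the BM, 21.2% and 21.9% in the BP, and 54.1% and 51.1% in the WT embryo over 90 and 45 cytosines. Rps6ka4, a kinase gene, and Mir5046 inside it had 53.5% and 36.6%, 13.7% and 9.03%, and 57.9% and 42.1% in the same order of embryos. In these 3 clusters the BM and WT embryos were within 7 points of each other while the BP embryo was lower.

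Begain, a gene of neuronal synapses, had 2 tiles with 63 and 93 cytosines, at 45.1% and 80.2% in the BM, 16.0% and 47.9% in the BP, and 24.1% and 57.6% in the WT embryo. Here the WT level lay between those of the uniparental embryos. The microRNA gene Mir34a, a target of p53, had 2 tiles 563 and 1563 bp away, with 69.5% and 79.3%, 40.6% and 49.7%, and 74.7% and 81.7%. A pair of tiles with no placed gene at chr7:62853001-62855000 (mm9) had 94.3% and 93.5% in the BM, 65.8% and 58.5% in the BP, and 91.5% and 93.8% in the WT embryo. The seventh cluster joined 4833420G17Rik and Tmem267. Among single tiles Erbb4, a receptor of neuregulins, had 94.6%, 44.1% and 89.3% between placed exons, with 5.67% and 5.02% in early ahESCs and phESCs. The Erbb4 tile had 89.6% in BM brain at E19.5, and 88.8% and 92.1% in adult BM and WT brain. Socs5, an inhibitor of cytokine signalling, had 54.3 ± 6.37%, 14.2 ± 6.47% and 39.0 ± 15.8% over 30 cytosines. Pura, a nucleic acid binding protein of neurons, had 73.6%, 28.2% and 55.2%, and Myo18a, a myosin gene, 63.0%, 28.1% and 56.7%. Of 3 single tiles with no placed gene, chr8:34943001-34944000 (mm9) had 78.1%, 42.0% and 79.1%, chr6:107943001-107944000 had 94.99%, 59.0% and 93.2%, and chr14:50504001-50505000 had 93.5%, 59.6% and 87.5%.

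BP-higher tiles outside the listed domains numbered 105. Their median levels were 34.4% in the BM, 69.9% in the BP and 31.9% in the WT embryo, and the WT level was nearer to the BM level in 93 and to the BP level in 12. Early ahESCs had a median of 49.9%, early phESCs 22.6% and early diploid cells 44.3%. Early ahESCs were at least 25 points above early phESCs in 53 of the 102 tiles measured in both, against 48% of all tiles, so this share was near the background, and at least 25 points below them in 2, against 0.103% of all tiles. One of the 2 is the tile with the largest difference, below. BM brain at E19.5 had a median of 49.4%, 10.9 points above the BM embryo in the median tile. It was at least 25 points above that embryo in 23 of 99 tiles (3.84% of all tiles) and below it in 2 (0.55% of all tiles). The adult brains were measured in fewer of the tiles, with medians of 27.6% over 67 in BM and 28.4% over 86 in WT. The BP embryo was higher than early ahESCs by 25 points in 42 of 104 tiles, against 16.4% of all tiles. The counts against the BM and BP embryos use levels that chose these tiles, and are descriptions only.

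The largest BP-higher difference was in a tile with no placed gene, chr1:172974001-172975000 (mm9). It had 4.58 ± 4.02% in the BM, 83.7 ± 7.46% in the BP and 20.6 ± 12.8% in the WT embryo over 8 cytosines within 48 bp. It had 57.7% in early phESCs, 9.49% in early ahESCs and 3.96% in early diploid cells, and 3.08%, 58.6% and 45.3% in the late cells of the same kinds. In brain it had 28.0% in BM at E19.5, 68.9% in adult BM and 35.1% in adult WT, and like Clcn4 it varied widely between libraries of 1 cell type. A pair of tiles 9626 and 8626 bp from the nearest placed exon of Pik3c3, a lipid kinase gene of autophagy, had 23.9% and 21.3% in the BM, 88.1% and 84.5% in the BP, and 2.62% and 4.15% in the WT embryo over 16 and 23 cytosines. Early ahESCs had 48.3% and 45.9%, and early phESCs 5.58% and 4.12%. Camk2b, a calcium-dependent kinase of neurons, had 2 tiles between placed exons. They had 21.2% and 4.45% in the BM embryo, 74.6% and 52.6% in the BP embryo, and 10.2% and 4.64% in the WT embryo. The 2 tiles of Gm43305 had 43.0% and 23.5%, 86.6% and 83.0%, and 51.8% and 41.0%. In the Pik3c3 and Camk2b pairs every BP cytosine exceeded every BM cytosine of its tile, and the WT embryo was low. The BM and BP values chose these tiles, so their order is a description only.

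Other BP-higher clusters had smaller differences. Arid3a, a DNA-binding regulator of transcription, had 3 tiles between placed exons, at 30.8%, 30.4% and 38.01% in the BM, 56.6%, 75.8% and 71.3% in the BP, and 9.03%, 29.8% and 24.2% in the WT embryo. A tile of D430020J02Rik and the neighbouring tile over its start and that of Ncapg2, a condensin subunit gene, had 64.4% and 54.7%, 92.9% and 79.9%, and 61.8% and 52.1% in the same order of embryos. In the start tile 6 of 57 positions with embryo values were kept. Over all 57, which include cytosines outside CpG, the BM-minus-BP difference was only -2.62 points. The 22 measured CpG cytosines within 250 bases upstream of the RefSeq start of Ncapg2 averaged 1.746%, 1.746% and 1.725%. The pair near Terc, the RNA of telomerase, was 8360 and 7360 bp from it and had the other order of the WT embryo, with 44.9% and 61.7% in the BM, 73.7% and 87.1% in the BP, and 73.1% and 83.2% in the WT embryo. Among single tiles Cep85, a centrosome gene, had 34.8%, 88.1% and 9.17%, Myh9, a nonmuscle myosin, 39.9%, 86.2% and 39.7%, and Hif3a, a hypoxia-inducible factor, 30.6%, 69.3% and 14.1%. Lrrc25 had 16.0%, 58.9% and 15.2%, and Rnf144a, a ubiquitin ligase gene, 39.2%, 76.6% and 42.1%. Gm42849, 6810 bp away from its tile, had 38.7%, 81.5% and 51.3%, and chr1:95977001-95978000 (mm9), with no placed gene, 37.4%, 76.5% and 46.7%. In the last 2 single tiles, also with no placed gene, the WT embryo was nearer to the BP embryo. The tile chr10:99062001-99063000 (mm9) had 40.8%, 85.7% and 84.5%, and chr7:55387001-55388000 had 1.11%, 48.8% and 40.1%.

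Differences from the WT embryo describe how far each uniparental embryo lay from it at the members. The BM-minus-WT and BP-minus-WT differences share the WT library, and each shares a library with the rule, so their values are set side by side only. Among the 99 BM-higher tiles the BP embryo was at least 25 points below the WT embryo in 61 (0.193% of all tiles), and the BM embryo at least 25 points above it in 8 (0.601% of all tiles). Among the 108 BP-higher tiles the BP embryo was at least 25 points above the WT embryo in 77 (1.34% of all tiles), and the BM embryo at least 25 points below it in 7 (0.0362% of all tiles). The 8 tiles with a raised BM level included Kcnq1ot1, the second Slc38a4 tile, Clcn4, 4833420G17Rik and Lhcgr, the luteinizing hormone receptor gene, named after its values were seen, which had 48.1%, 21.7% and 18.8% in the BM, BP and WT embryos. The 7 tiles with a lowered BM level included H19-Igf2, Rasgrf1, the first tile near Terc, and the tiles at chr7:55387001-55388000 and chr10:99062001-99063000, the last with the lowest BM-minus-WT difference of all members, -43.7 points. Median differences from WT over the BM-higher tiles were 6.03 points for the BM embryo and -28.8 points for the BP embryo. Over the BP-higher tiles they were -0.191 and 30.2 points, against 0.947 and 0.469 points over all measured tiles.

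Values of single cytosines show how evenly a tile differed. At Plagl1 all 66 cytosines of the BM embryo lay between 44.4 and 71.5%, and all of the BP embryo between 0 and 9.23%. At Grb10 the BM embryo fell from over 60% to 22.4% at a cytosine 108 bp before the centre of the tile, while the adjacent cytosine had 50.85%. The same held along a run from 108 to 76 bp before the centre. There the first cytosine of each adjacent pair had 22.4 to 27.6% in the BM embryo and the second 47.5 to 50.85%. The WT embryo had 46.75% at the cytosine with 22.4%. Its lowest value, 29.4%, was at another cytosine, where the BM embryo had 35.6%. At Zfp467 the 80 cytosines ranged from 1.54 to 90.4% in the BM and from 0 to 77.2% in the BP embryo, so the ranges overlapped, although the BM embryo was higher at 79 of the 80. At Camk2b the BM cytosines ran from 8.16 to 54.3% and those of the BP embryo from 60.9 to 92.3%. The ranges of the uniparental embryos did not overlap in 27 of the 29 imprinted BM-higher tiles, in 7 of 15 tiles with a start, in 28 of 55 other BM-higher tiles and in 39 of 105 BP-higher tiles outside the domains. These ranges are of the values that chose the members, and no share over all measured tiles was computed.

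**Figure D5:**
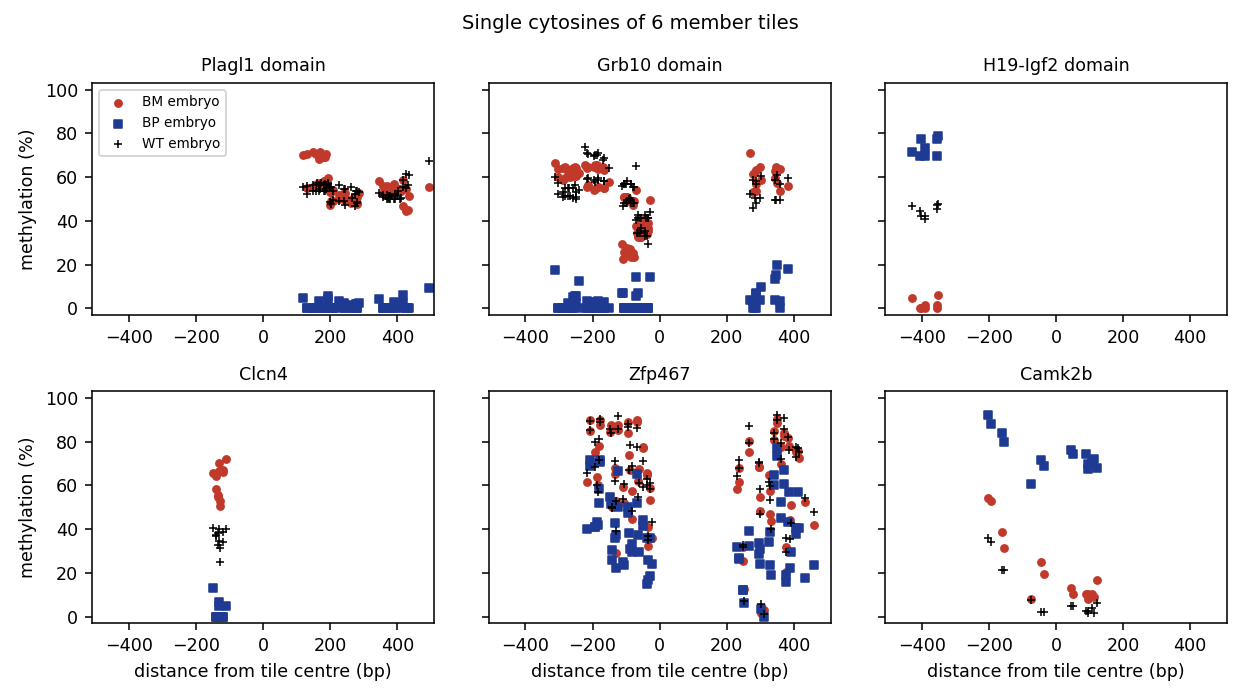
Methylation (%) of single cytosines against their distance from the centre of the tile (bp) in 6 member tiles, in the BM embryo (red circles), BP embryo (blue squares) and WT embryo (black crosses). The BM and BP embryos are apart at every cytosine of the Plagl1, Grb10, H19-Igf2, Clcn4 and Camk2b tiles with no overlap of their ranges, while at Zfp467 the ranges overlap although BM is higher at 79 of 80 cytosines.

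Genes of the germ line, whose promoters are known to be methylated in somatic cells, gave no member, which at 0.416% of all tiles says little in so few tiles. Of 15 listed genes, among them Dazl and Ddx4, 13 had measured tiles within 10 kb, 23 tiles in all. Their BM-minus-BP differences ran from -7.81 to 12.7 points.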

How the data were processed

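RRBS of 12 mouse libraries was deposited by the authors as 1 table of methylation percentages (0 to 100, N where missing) for 8119606 positions, made with Trim Galore and Bismark 0.13.1 on mm9, per the submitters' processing notes. Coverage per site is not in the table, so no count test, coverage minimum or interval was possible. Per the labels, DNA was cut with MspI, bisulfite-treated and sequenced.

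The table lists cytosines of CG and GC on both strands. Of listed positions of known context 50.2% were CpG, and 99.7% of those entering member tiles. Tiles were built as stated in the report. Another library needed values at 3 of a tile's cytosines.

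No mm9 genome or annotation was at hand. Exons and promoters of GENCODE M21 and RefSeq (GRCm38) were placed on mm9 by matching their CG and GC pattern to listed positions: 10 consecutive positions started a match, and 8 positions with 95% agreement were needed. Of 243603 sequence blocks 42125 were placed (17.3%), against 10 at a false shift of 2017 bp. This comes close to converting coordinates, and genes without a placed block are missed, so counts of starts and exons are lower limits.

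Named are members within 100 kb of listed imprinted genes, other clusters of 2 or more tiles, and the 10 largest single tiles each way, with gene names within 10 kb; genes named outside this rule are marked in the report as chosen after their values were seen. One cluster that meets this rule is not reported here. The members, lists and tests were chosen with earlier results of these data known, and the 100 kb was set after seeing that 50 kb missed the Inpp5f tile. Tile calling was tested on simulated data. Tiles were computed with pandas 2.3.3 and NumPy 2.4.6, and figures drawn with Matplotlib 3.10.9, under Python 3.11.15.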

Additional observations from a re-analysis of the deposited data

How the results depend on the processing

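No paired analysis was possible because each group had 1 library. With no replicate SD, a median counted as moved past 10 points and a count past 1.5 times. The BM-higher and BP-higher counts, 99 and 108, became 203 and 268 at 20 points, 55 and 48 at 30 points, 32 and 15 at 40 points, 188 and 245 with at least 3 cytosines, 55 and 28 with at least 10, and 185 and 205 with tile medians. Averaging neighbouring cytosines first gave 86 and 64. Which direction had more tiles thus depended on the setting: BP-higher tiles were more numerous in the main setting, but fewer at 30 and 40 points, with 10 cytosines, with neighbours averaged, without the 20% filter (below) and with shifted tile borders (99 and 94). Without the 20% filter the counts were 18 and 14, the WT embryo medians 29.6% and 12%, and the members in imprinted domains 16 instead of 32; by construction these means include the unmethylated GC positions. Members in imprinted domains fell to 18 with at least 10 cytosines and were 31 with domains within 50 kb, an alternative added after seeing the data.

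Of the medians in other libraries, in BM-higher tiles early ahESCs moved from 6.80% to 17.8% at 20 points and 20.1% with 3 cytosines. Early diploid cells moved from 24.6% to 41.7% at 20 points, 44.0% at 30, 46.9% at 40, 47.7% with 3 cytosines and 43.3% with tile medians. Without the filter BM brain at E19.5, adult BM brain and adult WT brain had 34.2%, 34.7% and 30.7%. In BP-higher tiles, values without the filter were 33.9% in early ahESCs, 7.83% in early phESCs, 23.3% in early diploid cells, 6.90% in BM brain at E19.5 and 14.2% in adult WT brain, these brains in the reverse of their order with the filter; adult WT brain had 39.3% with tile medians. At 40 points early phESCs had 12.4%, early diploid cells 30.3% and BM brain at E19.5 18.7%, the last with 38.6% at 30 points. With 10 cytosines the diploid cells had 34.4% and that brain 30.2%. Apart from construction, the cause was not tested. The other 181 values stayed within those limits.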
